A study of Mus musculus with 63 samples.

Results

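The genes described here mark the steps from a neural stem cell to an immature granule cell, and they were taken by symbol from the deposited count files: Sox2, Hopx, Nes, Eomes, Neurod1, Igfbpl1, Sox4, Sox11 and Dcx, 9 of the 55291 gene symbols counted. All 9 were present in every file. They were followed across dentate gyrus and CA3, both genotypes, the lesion, and a pull-down of synaptopodin.

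The study asked how hippocampal subfields adjust to the loss of entorhinal input and whether synaptopodin, an actin-associated protein of dendritic spines, is needed for it. Entorhino-hippocampal slices of mice of either sex were cut at postnatal day 3 to 5 and cultured for at least 18 days. The genotypes were C57BL/6J (Synpo+/+) and B6.129-Synpotm1Mndl/Dllr (Synpo-/-), back-crossed to C57BL/6J. In the ECL groups the entorhinal cortex had been cut off with a scalpel 3 days earlier (3 dp), and control cultures were not lesioned. Each of the 39 regional libraries came from 1 dentate gyrus (DG) or 1 CA3 area of a single culture. They comprised Synpo+/+ CA3 control (n = 2) and ECL (n = 3), Synpo+/+ DG control (n = 4) and ECL (n = 7), Synpo-/- CA3 control (n = 6) and ECL (n = 6), and Synpo-/- DG control (n = 7) and ECL (n = 4). In a second experiment, 6 cultures per replicate were lysed with cycloheximide, which holds ribosomes on mRNA. RNA was sequenced from the cleared lysate (input) and from the anti-synaptopodin precipitate (coIP), with 5 pairs from Synpo+/+ control, 5 pairs from Synpo+/+ ECL and 2 pairs from Synpo-/- cultures, for which the labels do not name a lesion state. Pairs were taken to share a lysate by replicate number in Synpo+/+ and by preparation number in Synpo-/- cultures. In the Synpo-/- labels the replicate and preparation numbers disagree. Slice cultures lack blood flow.

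In the dentate gyrus, granule cells continue to be born after birth from radial glia-like stem cells. Sox2, a transcription factor, and Hopx, a homeodomain protein without DNA binding of its own, mark these stem cells, and Nes encodes their intermediate filament nestin. Eomes (Tbr2) marks intermediate progenitors, Neurod1 drives the neuronal fate of their daughters, and Igfbpl1 is a marker of neuroblasts. Sox4 and Sox11 are the SoxC transcription factors of newly formed neurons, and Dcx encodes doublecortin, a microtubule-binding protein of migrating and immature neurons. Several of these genes are also used elsewhere: Sox2 and Hopx by astrocytes, Nes by reactive astrocytes and vessel cells, Eomes by Cajal-Retzius cells, and Neurod1 by mature granule cells. In tissue RNA of this kind, fewer cells of a type and less RNA per cell cannot be told apart.

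The regional libraries held 14055930 to 46043990 counts and the input and coIP libraries 11601154 to 53682143. Levels are given as CPM, the usual depth-scaled count (here after TMM scaling), or as RPKM, which also divides by exonic length. Prox1, the transcription factor that marks granule cells, checked the region labels: it lay between 120 and 217 CPM in 21 of 22 DG libraries and between 12.7 and 44.0 CPM in the CA3 libraries. The exception was the library labelled Synpo+/+ DG ECL replicate 5, with 15.5 CPM of Prox1, the lowest sum of mature granule cell markers in its group (98.4 CPM against a group median of 615) and the highest sum of CA3 pyramidal cell markers (698 CPM against a median of 247). It went against its label, so the counts of calls and the called values that rest on it are also given without it. Synpo-/- CA3 control replicate 1 had the 44.0 CPM of Prox1, where its group otherwise had 15.6 to 18.7 CPM. Some DG ECL libraries stood apart by transthyretin (Ttr), the main choroid plexus transcript, with 2281 CPM in Synpo+/+ replicate 1, 6003 CPM in Synpo+/+ replicate 3 and 8521 CPM in Synpo-/- replicate 2. Counts of Synpo over the whole gene were 19.1 to 38.4 CPM in Synpo+/+ and 30.4 to 69.3 CPM in Synpo-/- regional libraries. Which exons the allele lacks was not given in the sources used here, so these counts do not check the genotype labels.

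Per length, Hopx had the highest level of the 9 genes in the regional libraries and Eomes the lowest. The median over the 39 libraries was 20.1 RPKM for Hopx, 15.5 RPKM for Neurod1, 13.3 RPKM for Sox2, 8.41 RPKM for Sox4 and 6.79 RPKM for Sox11. It was 4.05 RPKM for Dcx, 2.79 RPKM for Nes, 0.467 RPKM for Igfbpl1 and 0.133 RPKM for Eomes. The ranges of neighbouring genes in this order overlapped, except that the lowest library for Nes (1.64 RPKM) stood above the highest for Igfbpl1 (1.22 RPKM). Eomes rested on 0 to 38 counts per regional library and Igfbpl1 on 12 to 94, whereas each of the other 7 genes had at least 153 counts in every one. The counting took no account of strand, and 27.2% of the exonic bases of Hopx are shared with Hopxos on the opposite strand, so their reads cannot be told apart. Neurod1 shares 7.4% of its exonic bases with Cerkl on its own strand and Eomes 2.8% with Gm33460 on the opposite strand.

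**Figure D1:**
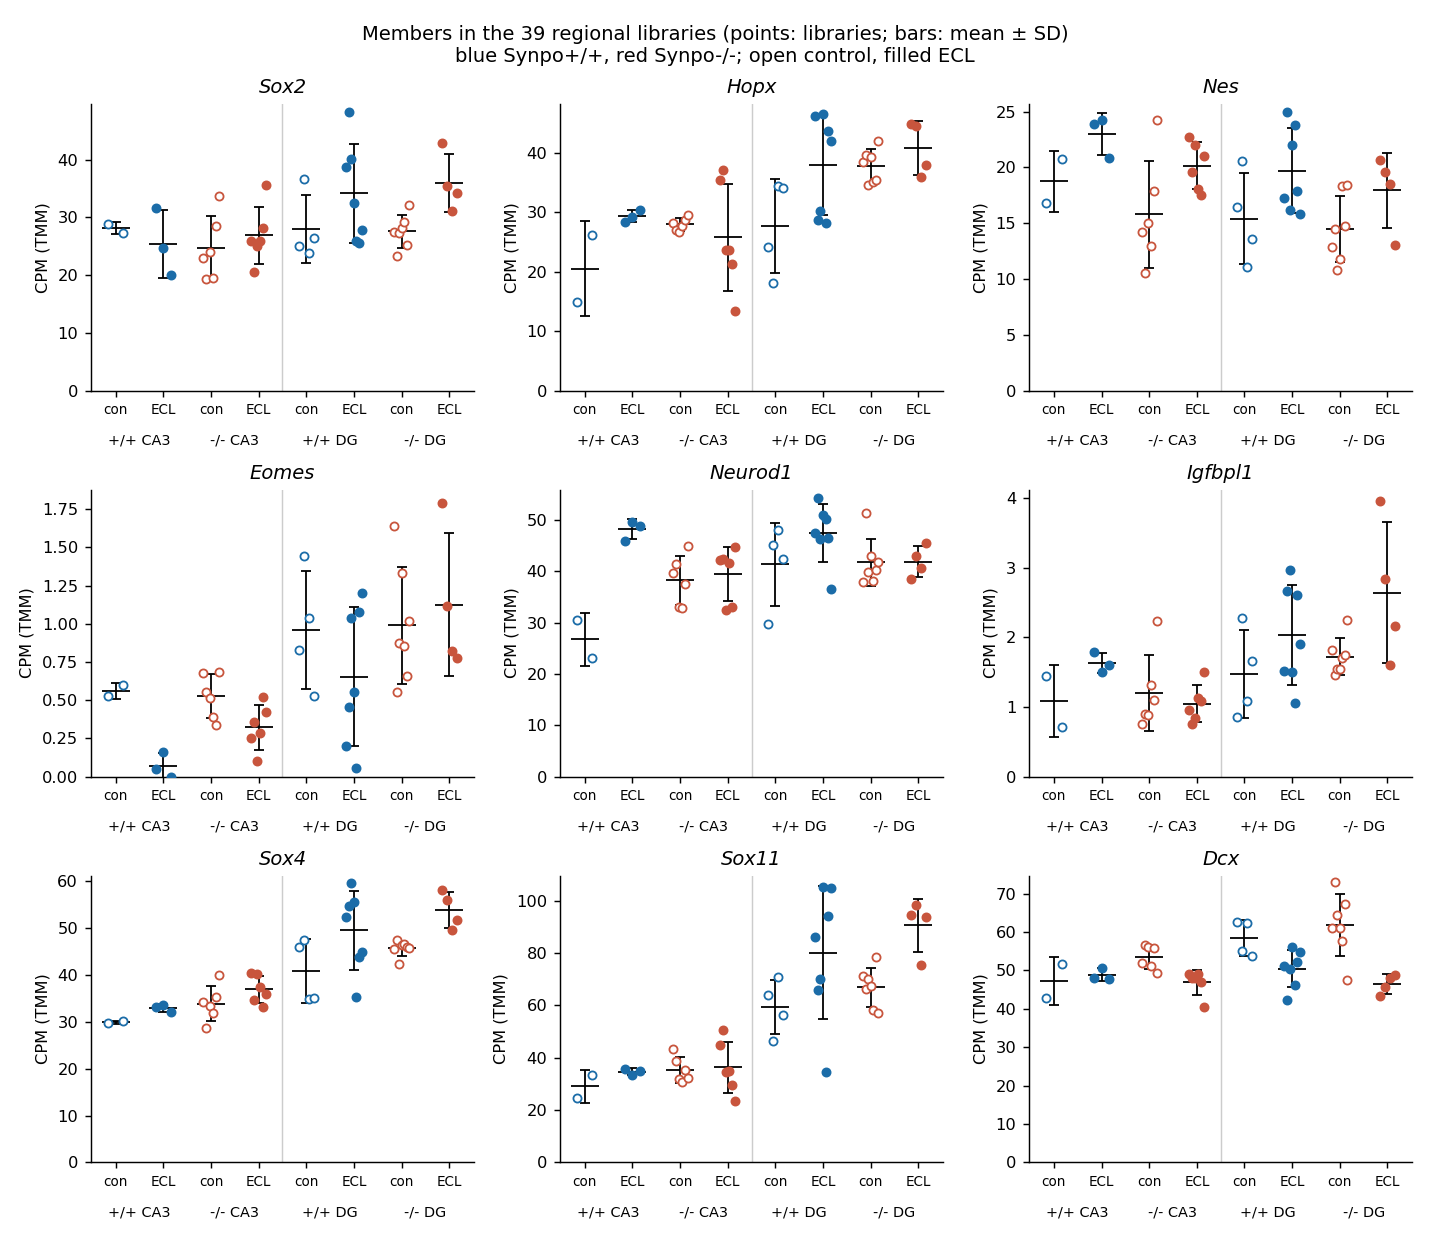
TMM-scaled CPM (y axis, from 0) of the 9 genes in each regional library, with CA3 groups left of the grey line and DG groups right of it; points are libraries, and bars show the mean ± SD of a group. Sox11 and Sox4 stood higher in DG than in CA3 in both genotypes except in 1 Synpo+/+ DG ECL library (34.5 CPM of Sox11), and Dcx in Synpo-/- DG was at 47.5 to 73.1 CPM in control and 43.3 to 48.9 CPM after ECL.

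The first comparison asked which of these genes distinguished the dentate gyrus from CA3. Sox11 was higher in DG in all 4 comparisons, by 2.07-fold in Synpo+/+ control cultures. Sox4 was higher in 3 of them, Hopx and Eomes in both Synpo-/- comparisons, Dcx in Synpo-/- control and Igfbpl1 in Synpo-/- ECL cultures by edgeR's quasi-likelihood test. Sox2, Nes and Neurod1 passed the threshold in none, and no gene of the 9 was lower in DG at an adjusted p under 0.05.

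Sequences before the transcription start are shown for the 4 genes that were called higher in DG in both Synpo-/- comparisons. They are from RefSeq (GRCm38.p6), 5′ to 3′ on the strand of the gene, and end at the base before the start; a window was available for 8 of the 9 genes, and of Hopx the outer of 2 starts is shown. Of the Sox4 window the last 14 bases were left out because an annotated exon covers them. Capitals mark matches, on either strand, to 6 motifs: the E-box CATATG, the E-box CAGCTG and the E-box CAGATG, the letters of which basic helix-loop-helix factors such as Neurod1 can bind, the CCAAT box (read as ATTGG on the other strand), the SOX motif AACAAT, and the TATA box TATAAA. None of the motifs shares letters with another in these windows.
Sox11, chr12:27342719-27342968, minus strand: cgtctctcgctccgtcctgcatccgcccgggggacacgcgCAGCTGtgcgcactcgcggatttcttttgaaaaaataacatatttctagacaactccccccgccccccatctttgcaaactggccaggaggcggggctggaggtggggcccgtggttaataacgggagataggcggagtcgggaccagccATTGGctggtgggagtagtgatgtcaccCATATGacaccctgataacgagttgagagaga
Sox4, chr13:28953714-28953949, minus strand: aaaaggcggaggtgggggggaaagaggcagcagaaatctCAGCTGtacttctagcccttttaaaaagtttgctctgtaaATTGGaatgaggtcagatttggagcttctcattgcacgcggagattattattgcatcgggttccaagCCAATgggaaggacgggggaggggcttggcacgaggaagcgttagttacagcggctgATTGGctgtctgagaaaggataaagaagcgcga
Hopx, chr5:77115124-77115373, minus strand: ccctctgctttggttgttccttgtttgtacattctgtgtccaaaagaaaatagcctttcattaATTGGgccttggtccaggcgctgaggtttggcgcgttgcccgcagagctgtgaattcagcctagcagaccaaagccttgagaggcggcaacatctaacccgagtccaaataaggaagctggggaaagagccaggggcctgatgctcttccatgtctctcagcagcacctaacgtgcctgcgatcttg
Eomes, chr9:118477939-118478188, plus strand: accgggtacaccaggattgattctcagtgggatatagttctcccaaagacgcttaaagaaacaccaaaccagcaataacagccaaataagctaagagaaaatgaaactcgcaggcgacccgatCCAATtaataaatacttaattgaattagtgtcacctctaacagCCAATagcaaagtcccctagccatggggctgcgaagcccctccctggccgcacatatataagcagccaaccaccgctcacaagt

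The 2 SoxC genes both held CAGCTG, 210 to 205 bases before the start in Sox11 and 211 to 206 bases before it in Sox4, a motif found in 13% of all 32851 windows of 250 bases. Sox11 also held CATATG, 32 to 27 bases before its start, which 3.46% of all windows contain. A CCAAT box, present in 33.8% of all windows, occurred in each of the 4. These matches describe letters in the windows and say nothing of binding.

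Sox11 (ENSMUSG00000063632.6, chromosome 12, 27334264 to 27342574, minus strand, GRCm38) had a regional difference called in both genotypes and both lesion states. In Synpo+/+ control cultures it reached 24.5 and 33.6 CPM in CA3 and 63.9, 46.6, 70.7 and 56.4 CPM in DG. In Synpo-/- control cultures the lowest, median and highest CA3 values were 30.7, 33.8 and 43.4 CPM, and those of DG were 56.9, 67.6 and 78.4 CPM. Every DG control library stood above every CA3 control library of its genotype. The log2 fold change (DG minus CA3) was 1.05 ± 0.19 (SE; adjusted p = 0.00358, edgeR) in Synpo+/+ and 1.03 ± 0.10 (adjusted p = 2.16e-07) in Synpo-/- control cultures. After ECL, the Synpo+/+ CA3 libraries had 35.9, 33.3 and 35.0 CPM, while DG ranged from 34.5 over a median of 86.2 to 105 CPM. The DG value of 34.5 CPM came from the library that went against its label, and the other 6 lay between 66.0 and 105 CPM. Synpo-/- ECL cultures had 23.5, 34.7 and 50.5 CPM (lowest, median, highest) in CA3 and 94.6, 98.2, 75.5 and 94.0 CPM in DG, without overlap. The log2 fold changes were 1.28 ± 0.28 (adjusted p = 0.0362, edgeR) and 1.33 ± 0.17 (adjusted p = 8.33e-05), and without the doubted library the former was 1.38 (adjusted p = 5.08e-06). Without Synpo+/+ CA3 control replicate 1, the control difference was 0.84 and missed the threshold (adjusted p = 0.0596).

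Sox4 (ENSMUSG00000076431.4, chromosome 13, 28948919 to 28953713, minus strand), its close relative, had a smaller log2 difference in each comparison. Synpo-/- control cultures had 28.6, 33.7 and 39.9 CPM (lowest, median, highest) in CA3 and 42.4, 45.9 and 47.4 CPM in DG. Synpo-/- ECL cultures had 33.2, 36.6 and 40.3 CPM in CA3 and 58.0, 56.0, 49.6 and 51.6 CPM in DG. The groups did not overlap in either case, and the log2 fold changes were 0.54 ± 0.08 (adjusted p = 2.93e-05, edgeR) and 0.55 ± 0.09 (adjusted p = 0.000979). In Synpo+/+ ECL cultures CA3 had 33.2, 33.6 and 32.1 CPM and DG 35.3, 52.4 and 59.6 CPM (lowest, median, highest), with a log2 fold change of 0.66 ± 0.16 (adjusted p = 0.0492). The DG value of 35.3 CPM was that of the doubted library, and without it the difference was 0.70 (adjusted p = 0.000399). Synpo+/+ control cultures had 29.7 and 30.1 CPM in CA3 and 45.9, 47.4, 34.8 and 35.1 CPM in DG. These did not overlap either, but the difference of 0.46 ± 0.17 missed the threshold (adjusted p = 0.145).

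Read against the whole table, the count of genes called varied with the comparison. In Synpo+/+ control cultures 1 of the 9 genes was called, where 5.39% of all genes tested were. In Synpo-/- control cultures 5 of the 9 were called against 25.5% of all genes (13.1% in the higher direction). In Synpo+/+ ECL cultures 2 of the 9 were called against 2.05% of all genes (without the doubted library 4 of the 9, and 4746 of 23965 genes), and in Synpo-/- ECL cultures 5 of the 9 against 13.6% (7.37% in the higher direction). The median log2 difference of the 9 genes was 0.45, 0.54, 0.44 and 0.55 in these 4 comparisons, beside 0.03, 0.05, 0.06 and 0.03 over all genes. The ECL and control comparisons of a genotype use different libraries. The Synpo+/+ ECL result also changed when a CA3 ECL library was left out. Without any 1 of these 3 libraries, edgeR called 0 of the 9 genes and at most 1 of all genes.

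Hopx (ENSMUSG00000059325.14, chromosome 5, 77086988 to 77115121, minus strand) had 26.7, 28.0 and 29.6 CPM (lowest, median, highest) in Synpo-/- CA3 control and 34.6, 38.5 and 42.0 CPM in Synpo-/- DG control libraries. All 7 DG libraries stood above all 6 CA3 libraries, with a log2 fold change of 0.54 ± 0.08 (adjusted p = 2.43e-05, edgeR). After ECL the Synpo-/- CA3 libraries spread from 13.5 over 23.7 to 37.2 CPM and overlapped with the DG libraries at 44.9, 44.6, 35.9 and 38.0 CPM. That difference was 0.68 ± 0.21 (adjusted p = 0.042) and was lost when any 1 of the 4 DG libraries was left out (adjusted p from 0.0629 to 0.117). In Synpo+/+ cultures the differences were 0.45 ± 0.26 in control (adjusted p = 0.416) and 0.44 ± 0.18 in ECL cultures (adjusted p = 0.196), and the latter was 0.48 (adjusted p = 0.0308) without the doubted library.

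Eomes (ENSMUSG00000032446.14, chromosome 9, 118478212 to 118486132, plus strand) was near the detection limit. In Synpo-/- control cultures it had 0.339, 0.532 and 0.683 CPM (lowest, median, highest) in CA3 and 0.554, 0.876 and 1.64 CPM in DG. In Synpo-/- ECL cultures it had 0.099, 0.319 and 0.518 CPM in CA3 and 1.79, 1.12, 0.820 and 0.775 CPM in DG, without overlap. The log2 fold changes were 1.01 ± 0.33 (adjusted p = 0.0303, edgeR) and 1.78 ± 0.42 (adjusted p = 0.00997). The latter was 1.49 (adjusted p = 0.0556) without DG ECL replicate 1. In Synpo+/+ ECL cultures the 3 CA3 libraries held 1, 4 and 0 counts, and the difference of 3.20 ± 1.02 missed the threshold (adjusted p = 0.106) unless the doubted library was left out (3.39, adjusted p = 0.00686).

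Markers of Cajal-Retzius cells, reelin-secreting neurons of the outer molecular layer that also make Eomes, moved with this result. Of the 5 markers, 4, 5, 4 and 4 were higher in DG in the Synpo+/+ control, Synpo-/- control, Synpo+/+ ECL and Synpo-/- ECL comparisons (5 in Synpo+/+ ECL without the doubted library). Their summed level was 150 to 211 CPM in Synpo-/- DG control and 27.8 to 100 CPM in Synpo-/- CA3 control libraries, and 144 to 184 CPM against 30.1 to 73.9 CPM after ECL. Of all genes tested, 2.63%, 13.1%, 1.54% and 7.37% were higher in DG in these 4 comparisons, in the same order. None of the 5 markers was at 0 throughout a group. Their part in the Eomes difference was not tested.

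Igfbpl1 (ENSMUSG00000035551.6, chromosome 4, 45809468 to 45826923, minus strand) had 0.753, 1.02 and 1.51 CPM (lowest, median, highest) in Synpo-/- CA3 ECL and 3.96, 2.85, 1.60 and 2.16 CPM in Synpo-/- DG ECL libraries. The groups did not overlap, and the log2 fold change was 1.32 ± 0.29 (adjusted p = 0.00627, edgeR). In Synpo-/- control cultures, CA3 had 0.762, 0.998 and 2.23 CPM and DG 1.46, 1.71 and 2.24 CPM, a difference of 0.62 ± 0.26 that missed the threshold (adjusted p = 0.0879). Replicate 2, 1 of the 4 Synpo-/- DG ECL libraries, was the one with 8521 CPM of Ttr, and without it the ECL difference was 1.27 (adjusted p = 0.0236).

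Dcx (ENSMUSG00000031285.14, chromosome X, 143855842 to 143933311, minus strand), the usual marker of immature granule cells, was called between regions in 1 of the 4 comparisons. In Synpo-/- control cultures it had 49.5, 53.9 and 56.5 CPM (lowest, median, highest) in CA3 and 47.5, 61.2 and 73.1 CPM in DG, with a log2 fold change of 0.31 ± 0.09 (adjusted p = 0.0132, edgeR). The ranges overlapped, because DG control replicate 7 had 47.5 CPM. The Synpo+/+ control difference was 0.32 ± 0.14 (adjusted p = 0.251), and after ECL the differences were 0.12 ± 0.11 in Synpo+/+ (adjusted p = 0.616) and -0.00 ± 0.09 in Synpo-/- cultures (adjusted p = 0.994). CA3 was not free of Dcx: each of its 17 libraries had between 40.4 and 56.5 CPM.

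Among the remaining genes, Sox2 had differences between 0.00 and 0.49, Nes between -0.27 and -0.03 and Neurod1 between 0.04 and 0.64 on the log2 scale, none past the threshold. The Neurod1 value of 0.64 ± 0.20 in Synpo+/+ control cultures (adjusted p = 0.0881) was called by DESeq2 (adjusted p = 0.0497), and it was 0.77 (adjusted p = 0.0237) without DG control replicate 1.

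**Figure D2:**
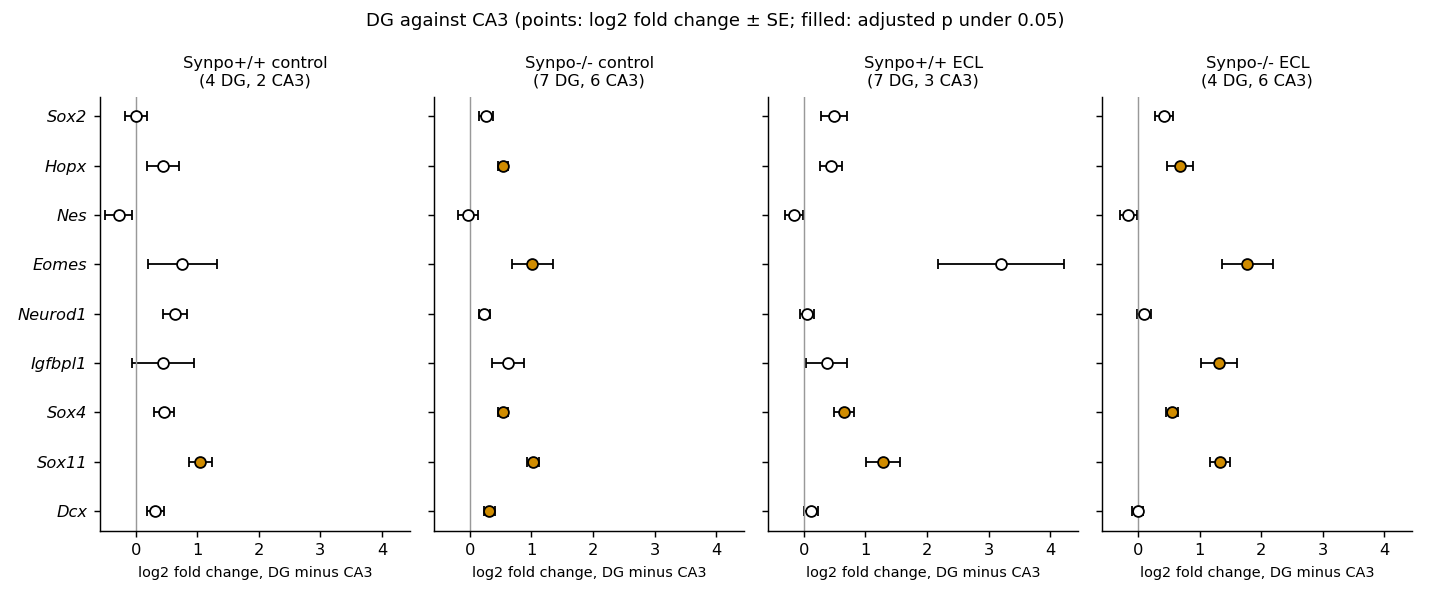
Log2 fold change of DG against CA3 (x axis) for each gene in the 4 regional comparisons; bars are ± 1 SE of edgeR's fit, and filled points have an adjusted p under 0.05. Sox11 is filled in every panel and lies between 1.03 and 1.33, whereas Nes lies at or left of 0 in each.

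The lists fixed for the neighbouring steps moved only in part with the 9 genes. Genes named from a list were among its 4 smallest adjusted p-values in at least 1 comparison. Of 20 tested neuroblast and immature neuron genes, 5 were higher and 4 lower in DG in Synpo+/+ control, 7 and 5 in Synpo-/- control, 4 and 1 in Synpo+/+ ECL and 6 and 4 in Synpo-/- ECL cultures (edgeR). Of all genes tested, 2.63%, 13.1%, 1.54% and 7.37% were higher and 2.75%, 12.5%, 0.508% and 6.24% lower, in the same order. Bcl11b, a transcription factor that mature granule cells keep, was higher by 2.88 ± 0.27 on the log2 scale in Synpo-/- control cultures (adjusted p = 1.71e-07), Marcksl1, an actin regulator, by 1.17 ± 0.11 (adjusted p = 3.05e-07). Neurod6, a factor of pyramidal neurons, was lower by a log2 fold change of -2.01 ± 0.20 (adjusted p = 5.07e-07), and Stmn2, a microtubule regulator, by -1.08 ± 0.10 (adjusted p = 2.88e-07). Both are also made by mature pyramidal neurons. The list's median difference lay between -0.06 and 0.09 in the 4 comparisons. Without the doubted library, 7 of its genes were higher and 7 lower in Synpo+/+ ECL cultures, beside 4746 of 23965 genes called in either direction.

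Of 15 tested stem cell and radial glia-like genes, 1 was higher and 1 lower in DG in Synpo+/+ control, 3 and 1 in Synpo-/- control, 2 and 0 in Synpo+/+ ECL and 12 and 1 in Synpo-/- ECL cultures. Id4, an inhibitor of helix-loop-helix factors, was called in all 4 comparisons, with log2 fold changes of 1.01 ± 0.16 (adjusted p = 0.00165), 1.00 ± 0.13 (adjusted p = 7.53e-06), 1.21 ± 0.28 (adjusted p = 0.0447) and 1.41 ± 0.13 (adjusted p = 7.86e-06, edgeR). Of 10 intermediate progenitor and cycling genes, 0, 2, 1 and 5 were higher and 0, 1, 0 and 0 lower. None of these 10 was called in Synpo+/+ control cultures by edgeR. Of all genes tested, 2.63%, 13.1%, 1.54% and 7.37% were higher and 2.75%, 12.5%, 0.508% and 6.24% lower, in the same order of comparisons. Without the doubted library, the Synpo+/+ ECL counts were 9 higher and 1 lower for the stem cell list and 3 and 1 for the progenitor list, and Id4 was at 1.30 (adjusted p = 7.89e-05). In that fit 4746 of 23965 genes were called in either direction. Top2a, a topoisomerase of dividing cells, was higher by 0.68 ± 0.14 in Synpo-/- ECL cultures (adjusted p = 0.00321, edgeR). In the last comparison 4 of 8 astrocyte and 5 of 8 microglia markers were also higher in DG, and their part was not tested.

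Across the 39 regional libraries the levels of Sox11 and Prox1 were ordered alike, with a Spearman correlation of 0.864, and so were those of Sox4 and Prox1 (0.790), Hopx and Sox11 (0.830) and Sox4 and Sox11 (0.761). Nes and Dcx had a correlation of -0.609. These are descriptions of libraries that fall into 2 regions and share preparation and depth, and they carry no test. The library labelled Synpo+/+ DG ECL replicate 5 had CA3-like values of Prox1 and Sox11 at once (15.5 and 34.5 CPM). Its 35.3 CPM of Sox4 lay above the Synpo+/+ CA3 libraries (29.7 to 33.6 CPM). That value was within the Synpo+/+ DG control range (34.8 to 47.4 CPM), and Synpo-/- CA3 ECL libraries reached 40.3 CPM.

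**Figure D3:**
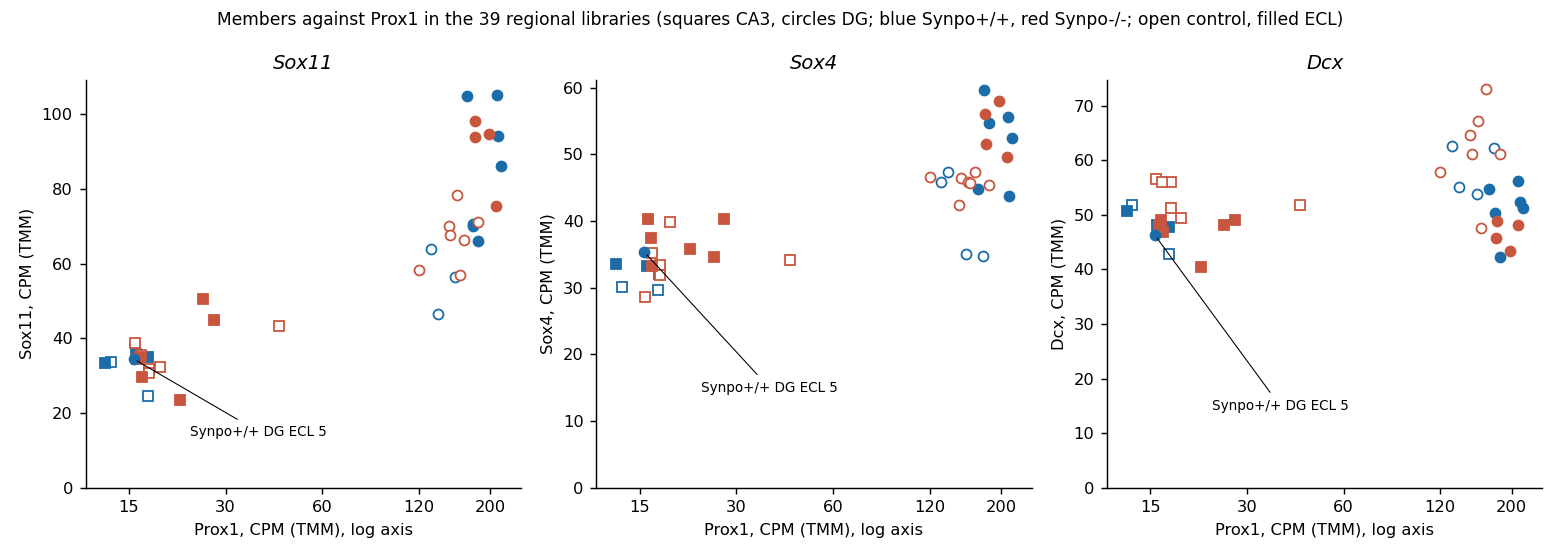
CPM of Sox11, Sox4 and Dcx (y axes, from 0) against CPM of Prox1 (x axis, logarithmic) in the 39 regional libraries; squares are CA3 and circles DG, blue is Synpo+/+ and red Synpo-/-, open symbols are control and filled ones ECL. The DG libraries lie at 120 CPM of Prox1 or more, except the marked one at 15.5 CPM, and within DG the filled symbols of Dcx lie mostly below the open ones.

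Among other genes with a mean of at least 5 CPM (11502, or 11503 for Eomes and Igfbpl1), those ordered most like Sox11 were Mfap3 (Spearman correlation 0.922), Prox1os (0.912), the antisense transcript at Prox1, and Ppp1r16b (0.908). For Sox4 they were Marcksl1 (0.919), Cdc42ep4 (0.897) and Zmiz1 (0.895), and for Hopx Id2 (0.839), Spata13 (0.836) and Sox11 (0.830). For Dcx they were Hmgb2 (0.760), 9330179D12Rik (0.750) and Zmym6 (0.737). Sox2 was ordered most like Sash1 (0.823) and Pbrm1 (0.799), and Nes like Wwc1 (0.818), Cdk11b (0.799) and Bag6 (0.788). Neurod1 had no gene above 0.688 (Smarca2), followed by Npy1r (0.644) and Cenpf (0.610). For Eomes they were Itgb8 (0.80), Pcgf6 (0.80) and Chsy3 (0.792), and for Igfbpl1 Pabpn1 (0.755), Ttc28 (0.738) and Col9a3 (0.730), both from few counts.

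The second comparison asked how the genes responded to ECL. At 3 dp in the Synpo-/- dentate gyrus, Sox11 rose by 1.31-fold and Dcx fell to 0.729 of its control level. In the Synpo+/+ dentate gyrus none of the 9 genes passed the threshold. In CA3, Neurod1 rose by 1.67-fold in Synpo+/+ cultures and no gene was called in Synpo-/- cultures. In whole-culture input RNA of Synpo+/+ cultures, Sox4 rose by 1.36-fold and Sox11 by 1.25-fold.

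In the Synpo-/- dentate gyrus 2 of the 9 genes were called, beside 8.53% of all genes tested. Sox11 went from 56.9, 67.6 and 78.4 CPM (lowest, median, highest of 7 control libraries) to 94.6, 98.2, 75.5 and 94.0 CPM. ECL replicates 1, 2 and 4 stood above all control libraries, and replicate 3 lay within the control range. The log2 fold change was 0.39 ± 0.11 (adjusted p = 0.0333, edgeR). Dcx went from 47.5, 61.2 and 73.1 CPM to 43.3, 45.7, 48.1 and 48.9 CPM. The ECL values lay below 6 of the 7 control libraries and overlapped with control replicate 7, and the log2 fold change was -0.46 ± 0.11 (adjusted p = 0.0171). Sox2, with 31.1 to 42.8 CPM after ECL and 23.3 to 32.2 CPM in control, had a difference of 0.34 ± 0.10 that missed the threshold (adjusted p = 0.0526), although DESeq2 called it (adjusted p = 0.0315). Sox4, at 42.4 to 47.4 CPM in control and 49.6 to 58.0 CPM after ECL, did not overlap, but its difference of 0.19 ± 0.08 was not called (adjusted p = 0.159).

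Both calls were lost in some of the fits that left out 1 ECL library. Without ECL replicate 2, the library rich in Ttr, the log2 fold change of Sox11 was 0.37 (adjusted p = 0.0804) and that of Dcx -0.43 (adjusted p = 0.0505). Without replicate 1 they were 0.37 (adjusted p = 0.0967) and -0.42 (adjusted p = 0.0684). Dcx missed the threshold without replicate 3 (-0.45, adjusted p = 0.0552) and Sox11 without replicate 4 (0.39, adjusted p = 0.0797). With the trends of gene length and GC content removed, Dcx was at -0.23 (adjusted p = 0.188) and Sox11 at 0.42 (adjusted p = 0.0104). Dcx is X-linked, and Xist exceeded the Y-linked transcripts in 4 of the 7 control and 2 of the 4 ECL libraries.

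In the Synpo+/+ dentate gyrus, 0 of the 9 genes were called by edgeR and 0 by DESeq2, with 2 at an unadjusted p under 0.05 (Hopx and Dcx), beside 12.2% of all genes called. Sox11 went from 63.9, 46.6, 70.7 and 56.4 CPM to 34.5, 86.2 and 105 CPM (lowest, median, highest of 7). Its log2 fold change was 0.41 ± 0.24 (adjusted p = 0.235), and without the doubted library, the source of the 34.5 CPM, it was 0.53 and passed (adjusted p = 0.0221). Dcx went from 62.5, 55.0, 62.3 and 53.7 CPM to 42.3, 51.2 and 56.1 CPM, a difference of -0.24 ± 0.11 (adjusted p = 0.136), or -0.23 (adjusted p = 0.113) without that library. Hopx had a difference of 0.43 ± 0.20 (adjusted p = 0.149). Xist exceeded the Y-linked transcripts in 4 of the 4 control and 4 of the 7 ECL libraries. Sex was thus not balanced between these groups, and its part was not tested. The lesion effects of the 2 genotypes in DG were not called different for any of the 9 genes by edgeR or DESeq2 (0 at an unadjusted p under 0.05). The difference between them (Synpo-/- minus Synpo+/+) was -0.06 ± 0.28 for Sox11 (adjusted p = 0.939) and -0.26 ± 0.16 for Dcx (adjusted p = 0.501), where 0.00381% of all genes were called. Without the doubted library 0 of the 9 were called there as well, with Sox11 at -0.19 and Dcx at -0.28.

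In Synpo+/+ CA3, 1 of the 9 genes was called, beside 1.78% of all genes. Neurod1 went from 30.4 and 23.2 CPM to 46.0, 49.7 and 48.9 CPM, with a log2 fold change of 0.74 ± 0.15 (adjusted p = 0.0423, edgeR). Groups this small also stood apart for genes that were not called, such as Sox4 (adjusted p = 0.876). The rise rests on 2 control libraries, and 23.2 CPM was the lowest value of the 39 regional libraries. It missed the threshold without any 1 of the 3 ECL libraries or without control replicate 2 (0.59 to 0.75, adjusted p from 0.0666 to 0.155). It also missed it with the length trend removed (0.48, adjusted p = 0.125). Sex was not balanced here either: Xist exceeded the Y-linked transcripts in 2 of the 2 control and 1 of the 3 ECL libraries. Hopx, at 14.9 and 26.2 CPM in control and 28.4, 29.3 and 30.5 CPM after ECL, had a difference of 0.41 ± 0.20 (adjusted p = 0.246). It was 0.91 without control replicate 2, a fit with only 1 control library, at 14.9 CPM. Eomes held 8 and 10 counts in control and 1, 4 and 0 counts after ECL, a difference that missed the threshold (adjusted p = 0.117).

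In Synpo-/- CA3, with 6 libraries a group, 0 of the 9 genes were called by edgeR or DESeq2, 2 had an unadjusted p under 0.05, and 0.077% of all genes were called. Neurod1 had 32.9, 38.7 and 45.0 CPM (lowest, median, highest) in control and 32.6, 42.0 and 44.8 CPM after ECL, a log2 difference of 0.06 ± 0.11 (adjusted p = 0.944). Nes went from 10.5, 14.6 and 24.3 CPM to 17.6, 20.3 and 22.7 CPM (0.36 ± 0.15, adjusted p = 0.65) and Dcx from 49.5, 53.9 and 56.5 CPM to 40.4, 48.1 and 49.1 CPM (-0.18 ± 0.07, adjusted p = 0.618). The Dcx groups did not overlap. The lesion effect on Neurod1 differed between the genotypes in CA3 by -0.72 ± 0.20 (Synpo-/- minus Synpo+/+), which edgeR did not call (adjusted p = 0.145) and DESeq2 did (adjusted p = 0.0495). For edgeR 2 of the 9 genes had an unadjusted p under 0.05 in that test, and 0 of 26821 genes were called.

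The lesion effects of DG and CA3 were also compared within each genotype. For none of the 9 genes was the difference called by edgeR or DESeq2, in Synpo+/+ cultures, where no gene at all was called, or in Synpo-/- cultures, where 1.12% of all genes were. In each genotype 1 of the 9 genes had an unadjusted p under 0.05. In Synpo-/- cultures the difference (DG minus CA3) was -0.29 ± 0.14 for Dcx (adjusted p = 0.452), 0.33 ± 0.20 for Sox11 (adjusted p = 0.606) and 0.73 ± 0.38 for Igfbpl1 (adjusted p = 0.502). In Synpo+/+ cultures that of Neurod1 was -0.63 ± 0.23 (adjusted p = 0.9995), or -0.64 (adjusted p = 0.519) without the doubted library, when edgeR called 0 of the 9 and 3 of all genes.

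**Figure D4:**
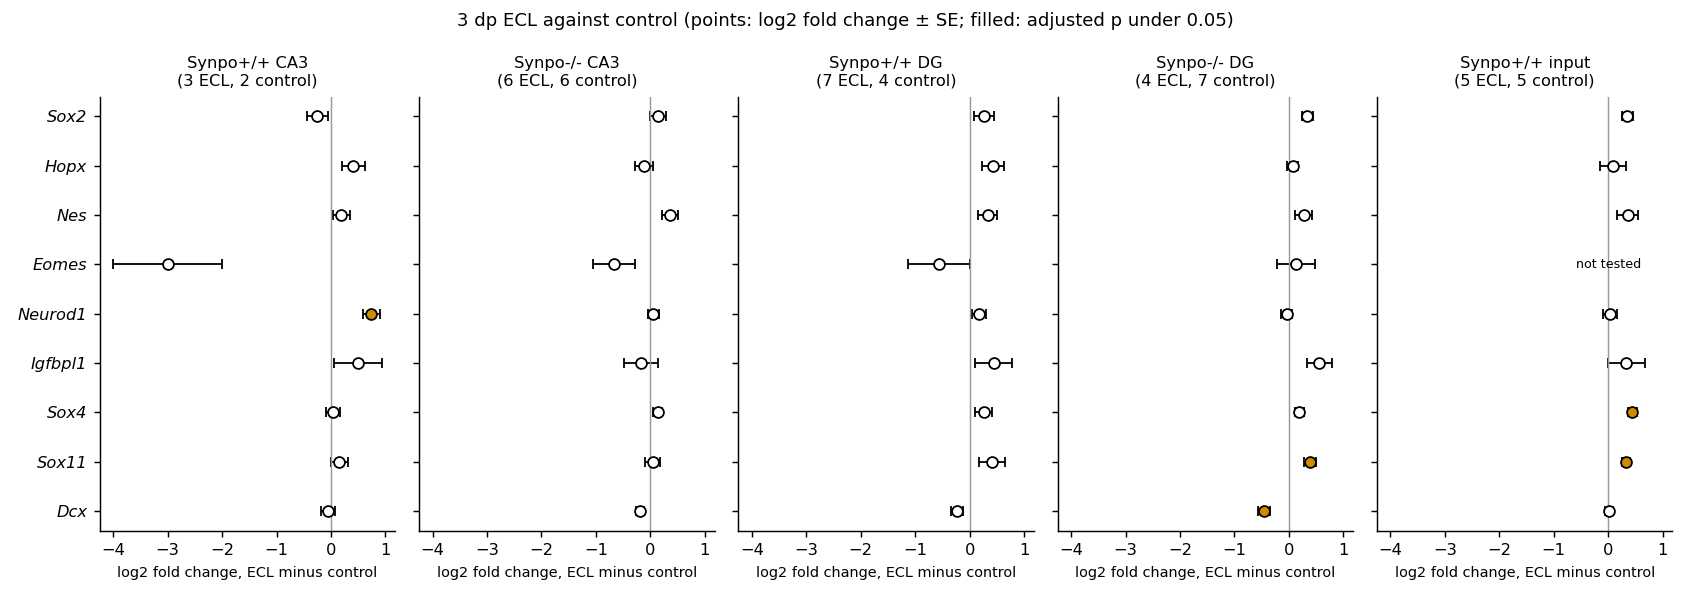
Log2 fold change 3 dp ECL against control (x axis) of each gene in the 4 regional groups and in Synpo+/+ input RNA; bars are ± 1 SE of edgeR's fit, filled points have an adjusted p under 0.05, and Eomes was too low to test in input. Sox11 lies right of 0 in each panel (0.04 to 0.41) and is filled in 2 of them, and Dcx is filled once, at -0.46.

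The input libraries, each from 6 whole entorhino-hippocampal cultures, gave a separate measure of the lesion in Synpo+/+ tissue. Their tissue was not limited to DG and CA3, and their table was normalized apart from the regional one. Sox4 had 55.0, 61.6, 67.3, 72.7 and 70.8 CPM in control and 90.4, 87.0, 93.9, 85.7 and 90.9 CPM in ECL inputs. Sox11 had 108, 89.5, 112, 104 and 96.8 CPM in control and 124, 139, 125, 123 and 132 CPM in ECL inputs. All 5 ECL inputs stood above all 5 control inputs for both genes. The log2 fold changes were 0.44 ± 0.08 for Sox4 (adjusted p = 0.00906, edgeR) and 0.32 ± 0.08 for Sox11 (adjusted p = 0.0265), 2 of 8 genes tested beside 5.61% of all genes. Sox2 also did not overlap, with 13.6 to 16.8 CPM and 17.2 to 20.8 CPM, but its difference of 0.35 ± 0.10 missed the threshold (adjusted p = 0.0579). Dcx had 42.9 to 50.4 CPM and 44.5 to 49.1 CPM, a difference of 0.01 ± 0.07 (adjusted p = 0.964). The Sox11 call was lost without control replicate 2 (0.28, adjusted p = 0.0751), ECL replicate 2 (0.30, adjusted p = 0.0713) or ECL replicate 3 (0.34, adjusted p = 0.0529). In a fit of all 6 input and coIP groups, both were lost (adjusted p = 0.156 for Sox4 and 0.103 for Sox11).

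Some genes of the cell cycle, part of the list for intermediate progenitors, rose after ECL in the dentate gyrus. In Synpo+/+ DG 3 of 10 intermediate progenitor and cycling genes rose, namely Top2a (1.51 ± 0.20 on the log2 scale, adjusted p = 0.000337), Cdk1 (1.504 ± 0.20, adjusted p = 0.000356) and Mki67 (1.21 ± 0.22, adjusted p = 0.00364, edgeR). The list's median difference was 0.32, and 7.86% of all genes tested rose. Ccnd2, Mcm2 and Pcna, cell cycle genes of the same list, were not among those that rose. With the doubted library left out 3 of 10 rose, with Top2a at 1.53, Cdk1 at 1.51 and Mki67 at 1.31. In Synpo-/- DG 4 of 10 rose, among them these 3, with Mki67 at 1.07 ± 0.14 (adjusted p = 0.000176), and the list's median was 0.03. In input RNA 3 of 8 rose, with Top2a at 1.87 ± 0.24 (adjusted p = 0.000853). Of all genes tested, 5.17% rose in Synpo-/- DG and 2.45% in input RNA. Top2a, Cdk1 and Mki67 serve the cell cycle of any dividing cell and do not name its type.

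Stem cell and radial glia-like genes rose in 4 of 15 cases in Synpo+/+ DG, 9 of 15 in Synpo-/- DG and 3 of 15 in input RNA, and none fell. Of all genes tested, 7.86% rose and 4.31% fell in Synpo+/+ DG, 5.17% and 3.36% in Synpo-/- DG and 2.45% and 3.16% in input RNA. The list's median difference was 0.34 in Synpo+/+ and 0.47 in Synpo-/- DG. In Synpo+/+ DG 8 of 15 rose without the doubted library, when 3250 of 23605 genes were called in either direction. Gfap, the filament protein of astrocytes and radial glia, rose by 1.44 ± 0.14 (adjusted p = 2.92e-05) and 1.30 ± 0.12 (adjusted p = 8.67e-06) on the log2 scale in the Synpo+/+ and Synpo-/- DG, and Vim by 1.05 ± 0.15 (adjusted p = 0.000651) and 1.18 ± 0.09 (adjusted p = 5.75e-07, edgeR). Gfap was at 1.42 and Vim at 1.10 in Synpo+/+ DG without the doubted library. Of 20 neuroblast and immature neuron genes, Cd24a rose (0.68 ± 0.13, adjusted p = 0.00596) and Neurod4 fell (-1.14 ± 0.31, adjusted p = 0.0296) in Synpo+/+ DG, and Cd24a (0.53 ± 0.10, adjusted p = 0.00404) and Marcksl1 (0.36 ± 0.11, adjusted p = 0.0456) rose in Synpo-/- DG. Without the doubted library 2 rose and 1 fell in Synpo+/+ DG, with Cd24a at 0.68 and Neurod4 at -1.01. In input RNA only Tubb3 was called of 19, falling by -0.47 ± 0.12 (adjusted p = 0.0372). In CA3 no stem cell or progenitor gene was called by edgeR in either genotype, and of the neuroblast list only Bcl11b was, in Synpo+/+ cultures (-1.37 ± 0.27, adjusted p = 0.0409).

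Glial markers moved with the lesion in the same libraries. Of all genes tested, 7.86% rose in Synpo+/+ DG, 5.17% in Synpo-/- DG and 2.45% in input RNA. In Synpo+/+ DG 8 of 8 microglia and 5 of 8 astrocyte markers rose, and the sum of the microglia markers went from 341 to 481 CPM in control to 922 to 1121 CPM in ECL libraries. In Synpo-/- DG 7 of 8 microglia and 6 of 8 astrocyte markers rose, with sums of 440 to 814 CPM and 975 to 1249 CPM for microglia and 1826 to 2065 CPM and 2248 to 2926 CPM for astrocytes. Of 6 markers of oligodendrocyte precursors, glial cells that can divide, 4 rose in Synpo+/+ DG, where their sum was 45.8 to 59.8 CPM in control and 64.0 to 96.3 CPM in ECL libraries. In Synpo-/- DG 3 of the 6 rose, with sums of 54.4 to 66.0 CPM and 73.2 to 113 CPM, so the sums did not overlap in either genotype. Without the doubted library 8 of 8 microglia, 5 of 8 astrocyte and 4 of 6 precursor markers rose in Synpo+/+ DG. In input RNA 3 of 8 microglia, 0 of 8 astrocyte and 0 of 6 precursor markers rose (edgeR). No marker of these lists was at 0 throughout a group. The part of these cells in the changes of Sox11, Dcx and the lists above was not tested.

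The third comparison set Synpo-/- against Synpo+/+ libraries of the same region and lesion state. None of the 9 genes was called by edgeR or DESeq2 in any of the 4 comparisons. The number with an unadjusted p under 0.05 was 2 in CA3 control, 0 in CA3 ECL, 1 in DG control and 0 in DG ECL libraries. Leaving out the doubted library, 0 of the 9 were called in DG ECL libraries too. Of all genes, edgeR called 0.00413% in CA3 control, 0.00891% in CA3 ECL, 0.0166% in DG control and 0.0166% in DG ECL libraries. Hopx had the lowest unadjusted p in DG control, with 24.2, 18.1, 34.5 and 34.0 CPM in Synpo+/+ and 34.6 to 42.0 CPM in Synpo-/- libraries. These did not overlap, and the log2 difference was 0.42 ± 0.15 (adjusted p = 0.236). In CA3 control Neurod1 had 30.4 and 23.2 CPM in Synpo+/+ and 32.9 to 45.0 CPM in Synpo-/- libraries, a difference of 0.45 ± 0.15 (adjusted p = 0.176). Sox11 differed between genotypes by 0.11 to 0.22 and Dcx by -0.15 to 0.12 on the log2 scale.

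The last comparison asked which of the genes' mRNAs came down with synaptopodin. Nes was enriched over input, by 2.75-fold in Synpo+/+ control and 2.54-fold in Synpo+/+ ECL cultures. Neurod1 and Dcx were depleted in both, to between 0.593 and 0.665 of input, and Sox11 was called depleted in control cultures. The Synpo-/- precipitates, meant to lack the target of the antibody, gave 3 calls in the same directions: Nes was enriched 2.15-fold, and Neurod1 and Dcx were depleted.

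Nes (ENSMUSG00000004891.16, chromosome 3, 87971078 to 87980451, plus strand) had 12.9, 20.9, 13.9, 20.7 and 23.6 CPM in the Synpo+/+ control inputs and 42.0, 44.6, 44.0, 55.8 and 63.6 CPM in the coIP libraries of the same lysates. In ECL cultures it had 32.1, 23.5, 19.6, 15.97 and 27.2 CPM in input and 71.7, 61.0, 47.0, 39.4 and 78.9 CPM in coIP, and in Synpo-/- cultures 25.4 and 17.9 CPM in input and 55.3 and 40.2 CPM in coIP. Each of the 12 precipitates stood above all inputs of its set, at 2.13 to 3.25 times the input of its own lysate. The log2 fold changes were 1.46 ± 0.17 (adjusted p = 6.5e-06, edgeR), 1.34 ± 0.20 (adjusted p = 7.94e-05) and 1.10 ± 0.20 (adjusted p = 0.00166). The enrichment was not called different between genotypes (Synpo-/- minus Synpo+/+ control, -0.31 ± 0.32, adjusted p = 0.892). In that test edgeR called 0 of 8 genes tested and 0 of all 20621, with 0 of the 8 at an unadjusted p under 0.05 and 0 of them by DESeq2.

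Dcx had 48.7, 42.9, 43.5, 50.4 and 45.3 CPM in Synpo+/+ control inputs and 41.3, 24.0, 33.1, 18.3 and 20.1 CPM in their precipitates. In ECL cultures it had 45.0, 48.0, 47.2, 49.1 and 44.5 CPM in input and 22.7, 40.7, 24.2, 39.5 and 21.8 CPM in coIP, and in Synpo-/- cultures 45.9 and 47.8 CPM and 31.4 and 36.5 CPM. The inputs were close together and the precipitates spread widely, all 12 below their inputs. The log2 fold changes were -0.74 ± 0.18 (adjusted p = 0.00343, edgeR), -0.63 ± 0.18 (adjusted p = 0.00804) and -0.50 ± 0.15 (adjusted p = 0.0212). The Synpo-/- call, with 2 pairs, was lost without either input library or without coIP replicate 1 (adjusted p from 0.0736 to 0.137).

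Neurod1 had 18.5 to 27.9 CPM in Synpo+/+ control inputs and 11.3 to 16.3 CPM in coIP, 20.4 to 26.6 CPM and 11.8 to 15.9 CPM in ECL cultures, and 20.7 and 29.7 CPM and 15.8 and 17.9 CPM in Synpo-/- cultures. All 12 precipitates were below their inputs, with log2 fold changes of -0.59 ± 0.14 (adjusted p = 0.00239, edgeR), -0.75 ± 0.12 (adjusted p = 0.000127) and -0.61 ± 0.19 (adjusted p = 0.0283). The Synpo-/- call was lost without input replicate 2 (-0.32, adjusted p = 0.387) or coIP replicate 1 (-0.53, adjusted p = 0.0715). Sox11 lay below its input in 4 of 5, 4 of 5 and 2 of 2 lysates, with log2 fold changes of -0.28 ± 0.09 (adjusted p = 0.0145), -0.26 ± 0.12 (adjusted p = 0.077) and -0.30 ± 0.14 (adjusted p = 0.132). With the lysate as a block the ECL value was -0.28 (adjusted p = 0.0418). Sox4, at 0.30 ± 0.14 in control cultures (adjusted p = 0.0751), was called with the block as well (0.28, adjusted p = 0.0102).

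**Figure D5:**
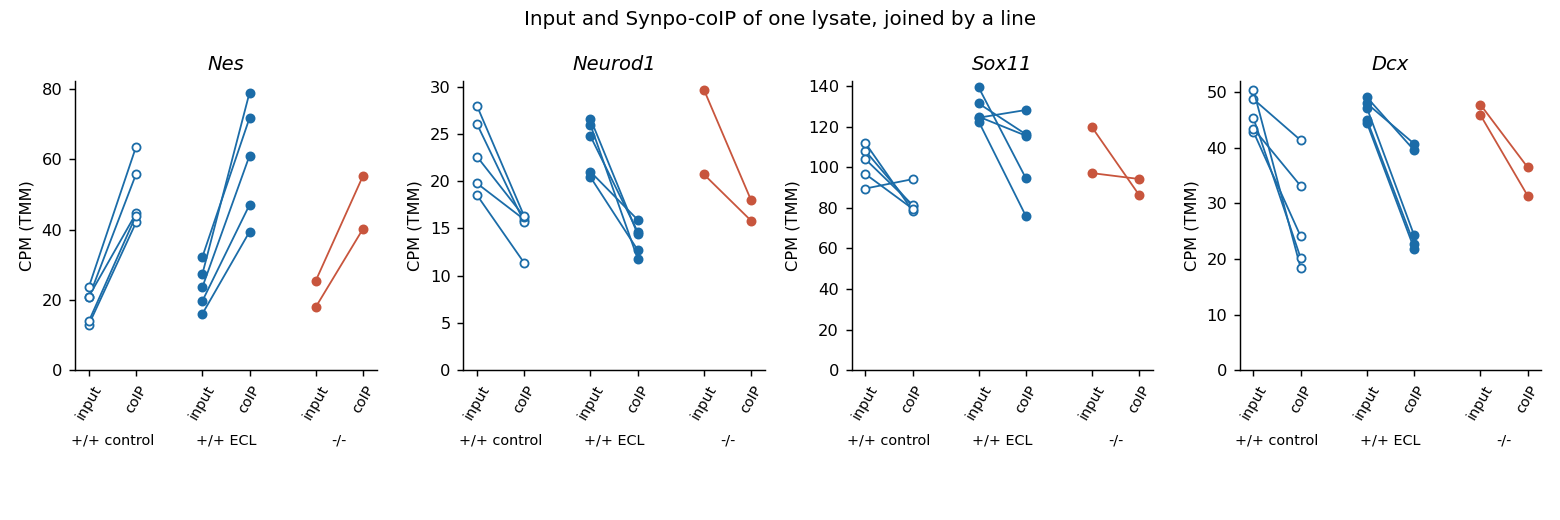
CPM (y axes, from 0) of Nes, Neurod1, Sox11 and Dcx in input and coIP taken to share a lysate, joined by a line; open blue circles are Synpo+/+ control, filled blue Synpo+/+ ECL and red Synpo-/-. Every line of Nes rises and every line of Neurod1 and Dcx falls, in Synpo-/- as in Synpo+/+ lysates.

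These calls stood among many. In Synpo+/+ control cultures 4 of 8 genes tested were called beside 55% of all genes, in Synpo+/+ ECL cultures 3 of 8 beside 58.3%, and in Synpo-/- cultures 3 of 9 beside 31.4%. Fold changes between coIP and input followed gene length and GC content. With these trends removed, Nes stayed enriched (1.08 in control and 0.98 in ECL cultures) and Dcx depleted (-1.02 and -0.91), whereas Neurod1 missed the threshold (-0.11, adjusted p = 0.584, and -0.17, adjusted p = 0.333). Sox2, at 0.15 ± 0.15 and -0.09 ± 0.17 and not called, was enriched by 0.59 (adjusted p = 0.00203) and 0.43 (adjusted p = 0.0117) with the trends removed.

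Among genes of the neighbouring steps, 10 of 18 tested neuroblast and immature neuron genes were depleted and 4 enriched in Synpo+/+ control precipitates, 10 and 4 of 18 in ECL and 5 and 1 of 20 in Synpo-/- precipitates (edgeR). Stmn1, a microtubule-destabilizing protein, was depleted by -1.46 ± 0.10 (adjusted p = 2.35e-07), -1.41 ± 0.16 (adjusted p = 1.05e-05) and -1.37 ± 0.14 (adjusted p = 0.000183), and Neurod6 by -1.47 ± 0.14 (adjusted p = 1.3e-06), -1.60 ± 0.13 (adjusted p = 1.51e-06) and -1.24 ± 0.14 (adjusted p = 0.000201). Of 15 stem cell and radial glia-like genes 7, 4 and 4 were enriched and 2, 2 and 1 depleted. The receptor Notch1 was enriched by 1.43 ± 0.27 (adjusted p = 0.000464), 1.28 ± 0.20 (adjusted p = 0.000117) and 0.87 ± 0.23 (adjusted p = 0.0123), and the matrix protein Tnc by 1.11 ± 0.17 (adjusted p = 7.41e-05), 1.02 ± 0.23 (adjusted p = 0.00202) and 1.18 ± 0.25 (adjusted p = 0.00392). Of the progenitor and cycling genes 2 of 8, 1 of 7 and 1 of 10 were enriched and 2, 2 and 1 depleted. Of all genes tested, 29.6%, 30.5% and 15% were enriched and 25.5%, 27.8% and 16.4% depleted, in the same order.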

How the data were processed

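Polyadenylated RNA of 63 libraries was made into unstranded cDNA libraries with a low-input kit. The deposited files hold raw counts per gene symbol, which the authors made with cutadapt 3.5, STAR 2.7.8a and featureCounts 2.0.1 against mm10 (GRCm38), per the labels. Of the symbols, 107 stand for more than 1 annotated gene, none of them a gene described here. Counts were tested with edgeR 4.0.16 (quasi-likelihood test, TMM scaling, filterByExpr), each comparison on its own groups, with Benjamini-Hochberg adjustment over all genes tested and a threshold of 0.05, whereas the authors' methods name DESeq2 (here an alternative, version 1.42.0). Scripts were tested on simulated counts. The 9 genes and the lists were chosen with earlier results of these data known. Genes named from a list were among its 4 smallest adjusted p-values in a comparison that called them. Labels do not say which cultures came from separate animals, so p-values measure the spread between these libraries, which may be partly technical.

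No 2 libraries had identical counts. Synpo+/+ input and coIP libraries of one number were taken to share a lysate, which the labels do not state. Their deviations from the group means correlated at 0.318 to 0.684 in control and 0.148 to 0.708 in ECL pairs, and the lysate was kept as a block in an alternative fit. The input matched the coIP of its own number best in 5 of 5 control and 3 of 5 ECL pairs. Alternatives were DESeq2, RLE scaling (size factors), no filter, removal of length and GC trends (lowess on genes with a mean count of at least 50), one fit over all 8 regional or all 6 other groups, a replicate block, and leaving out libraries. Some results are not reported here.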

Additional observations from a re-analysis of the deposited data

Results flagged for a closer look

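Within groups of 4 to 10 libraries, 7 of 90 combinations of gene and group had 1 library far from the others by Dixon's test, where chance marks about 1 in 20 groups. In DG control libraries of Synpo-/- cultures, replicate 2 had 51.4 CPM of Neurod1 (others 37.9 to 43.1 CPM) and replicate 3 had 42.4 CPM of Sox4 (others 45.5 to 47.4 CPM). Among Synpo-/- CA3 libraries, control replicate 6 had 2.23 CPM of Igfbpl1 (others 0.762 to 1.31 CPM) and ECL replicate 6 had 40.4 CPM of Dcx (others 46.9 to 49.1 CPM). Among the Synpo+/+ control coIP libraries, replicate 1 had 11.3 CPM of Neurod1 (others 15.6 to 16.3 CPM), replicate 2 had 94.2 CPM of Sox11 (others 78.7 to 81.5 CPM) and replicate 3 had 0.213 CPM of Eomes (others 0.0432 to 0.0911 CPM), the last from at most 3 counts per library.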

How the results depend on the processing

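Numbers of called genes among the 9 changed under several settings, and causes were not tested. In Synpo+/+ CA3 the 1 gene called after ECL became 0 with RLE size factors, with the length trend or both trends removed, and in the fit of all 8 regional groups, and 0 to 1 when a library was left out. In Synpo+/+ DG the 0 became 1 without ECL replicate 5 (0 to 1 over left-out libraries). In Synpo-/- DG the 2 became 1 with RLE, without a filter on low counts, with both trends removed and in the fit of all groups, and 0 to 2 with a library left out. For DG against CA3, the 1 of Synpo+/+ control became 2 with DESeq2, without a filter and in the fit of all groups (0 to 2 with a library left out). The 5 of Synpo-/- control became 3 without a filter and 2 in the fit of all groups. The 2 of Synpo+/+ ECL became 1 with RLE and 4 without DG ECL replicate 5 (0 to 4), and the 5 of Synpo-/- ECL became 3 to 4 with a library left out. The genotype by lesion test in CA3 went from 0 to 1 with DESeq2. In input RNA the 2 became 0 in the fit of 6 groups and 1 to 3 with a library left out. In coIP, 4 (Synpo+/+ control) became 7 with block and length trend, 3 (ECL) became 5 with the length trend, with all 6 groups, and with block and length trend, and 3 (Synpo-/-) became 1 to 3 with a library left out. Sox2 in ECL coIP went from -0.09 to 0.42 with the length trend and 0.43 with both trends removed, and to 0.41 and 0.42 with the block added.

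The labels do not say whether equal replicate numbers in different regional groups mark a shared culture or day. Same-numbered libraries correlated at -0.425 to 0.499 over the regional comparisons. For DG against CA3 in Synpo-/- control all 6 pairs were positive (0.0744 to 0.481), 5 of them over 0.1 and 3 best with their own number, and the pairing is undecided there. With the block Eomes lost its call in that comparison (0.96, adjusted p = 0.0628) and Neurod1 gained one (0.23, adjusted p = 0.0488). With a replicate block the counts were 3 for the lesion in Synpo+/+ DG, 1 in Synpo-/- DG, 4 for Synpo+/+ ECL regions, 2 for genotype in CA3 control, and 1 for input RNA. The lysate block changed only the Sox4 and Sox11 calls named above among the 9 genes in coIP.

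Over all genes the number called swung with the setting, from 0 to 2716 (397 in the report's fit) for the lesion in Synpo+/+ CA3, 999 to 4248 (2886) in Synpo+/+ DG, 662 to 2826 (1989) in Synpo-/- DG and 0 to 4999 (492) for regions in Synpo+/+ ECL. Removing the length trend shifted the median of all genes by -0.13 and -0.14 in the Synpo+/+ CA3 and DG lesion comparisons. Groups of 2 and 3 CA3 libraries limit the Synpo+/+ results, and Eomes and Igfbpl1 are limited by few counts. Alternatives that add a trend to the coIP block, and leaving out Synpo-/- CA3 control replicate 1 (no call among the 9 genes changed), were chosen after seeing the data, as was the genotype test of the coIP enrichment. Counts for the lists without Synpo+/+ DG ECL replicate 5 were added then too.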

Other observations

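Hopx was far lower in whole-culture RNA than in the isolated subfields, with 1.25 to 3.04 CPM in the 12 input libraries beside 13.5 to 46.6 CPM in the 39 regional libraries. Sox11 went the other way, with 89.5 to 139 CPM in inputs and 23.5 to 105 CPM in regional libraries, and Sox4 had 55.0 to 93.9 CPM and 28.6 to 59.6 CPM. The 2 experiments were normalized separately and differ in lysis and in the tissue taken, so no test was made.

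In the DG ECL libraries rich in Ttr, Sox2 was 38.8 and 40.1 CPM (Synpo+/+ replicates 1 and 3), within the group's 25.6 to 48.2 CPM. Igfbpl1 was 1.52 and 2.97 CPM there, the latter the highest of the group's 1.06 to 2.97 CPM. In Synpo-/- replicate 2 they were 35.5 and 2.85 CPM, within 31.1 to 42.8 CPM and 1.60 to 3.96 CPM.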
